A study of Homo sapiens with 3 samples.

Results

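Far intergenic H3K27ac-only peaks were examined in H2087 cells, an established line from a human lung adenocarcinoma. A member was a distinct H3K27ac peak that shared no base with an H3K4me3 peak, lay more than 3 kb from the start of any annotated gene, had its centre outside all protein-coding genes, and lay more than 50 kb from the nearest protein-coding start. The members were therefore selected on measured values, the peak calls of both marks, as well as on position. The rule found 2229 members among 18309 H3K27ac-only peaks (12.2%, exact Clopper-Pearson 95% interval 11.7 to 12.7) and 24096 H3K27ac peaks in all (9.25%). Chromatin immunoprecipitation followed by sequencing was done on untreated cells with 1 library for each histone mark and 1 input library, which was not analysed here. With 1 library per mark there was no replicate, so values are given as descriptions without a test, and the intervals take in counting error alone, as if peaks close together were independent. The lists hold no read counts, so the depth is unknown and a place without a peak cannot be told from one with too few reads.

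H3K27ac is an acetylation of histone H3 that lies on the nucleosomes beside active enhancers and promoters, while H3K4me3 lies mainly at active or poised promoters. Distal enhancers are bound by transcription factors in the open stretch between acetylated nucleosomes and can act on a promoter over long genomic distances. The nearest gene is used here as a label of position, and the lists hold no measure of which gene a peak acts on.

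The sequences are shown because the comparisons of letters below turn on them. All are from hg19, plus strand, 5′ to 3′. The first are 150 bases on the centre of members with the highest −log10 q whose 32-base words were almost all unique in the assembly. In these, capitals mark the NK2 homeobox letters TCAAGTG and the E-box letters CAGCTG, and none holds the AP-1 letters TGANTCA in its 300-bp window.
ATP23 member (chr12:58708224-58708373): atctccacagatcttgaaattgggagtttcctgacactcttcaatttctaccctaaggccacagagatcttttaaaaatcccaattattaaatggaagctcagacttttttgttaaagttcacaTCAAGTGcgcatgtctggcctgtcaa
FEM1C member (chr5:114796865-114797014): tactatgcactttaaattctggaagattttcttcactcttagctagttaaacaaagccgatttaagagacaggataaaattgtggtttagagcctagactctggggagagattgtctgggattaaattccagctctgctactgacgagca
VANGL1 member (chr1:116087971-116088120): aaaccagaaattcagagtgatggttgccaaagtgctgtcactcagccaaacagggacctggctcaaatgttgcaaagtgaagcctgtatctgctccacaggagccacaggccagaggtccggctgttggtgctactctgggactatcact
The member nearest to FN1, which encodes fibronectin, had the most AP-1 matches in its 300-bp window, 3 in all, with 2 of them in the 150 bases shown and in capitals.
FN1 member, centre (chr2:216525447-216525596): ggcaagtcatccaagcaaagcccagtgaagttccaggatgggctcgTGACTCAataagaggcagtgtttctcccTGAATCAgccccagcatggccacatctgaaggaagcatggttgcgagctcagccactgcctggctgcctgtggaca
The last are 300-base stretches centred 550 bp to one side of a member, chosen after the profile around the centres had been seen for having the most AP-1 matches 400 to 700 bp out. Capitals mark 3 AP-1 matches in each.
FSCB member, flank (chr14:44786056-44786355): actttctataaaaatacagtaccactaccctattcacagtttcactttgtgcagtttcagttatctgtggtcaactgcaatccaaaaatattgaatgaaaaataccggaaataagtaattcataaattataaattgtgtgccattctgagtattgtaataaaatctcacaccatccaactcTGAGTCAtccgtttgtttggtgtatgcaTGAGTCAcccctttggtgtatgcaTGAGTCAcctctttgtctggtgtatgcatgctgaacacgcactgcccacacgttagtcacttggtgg
RPS23 member, flank (chr5:81661387-81661686): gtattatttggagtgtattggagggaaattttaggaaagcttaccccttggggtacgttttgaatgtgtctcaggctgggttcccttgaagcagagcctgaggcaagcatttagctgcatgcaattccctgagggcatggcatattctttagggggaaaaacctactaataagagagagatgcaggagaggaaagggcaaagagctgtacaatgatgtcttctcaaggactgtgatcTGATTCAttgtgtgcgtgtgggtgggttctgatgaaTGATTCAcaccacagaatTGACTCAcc
FOXL1 member, flank (chr16:86698138-86698437): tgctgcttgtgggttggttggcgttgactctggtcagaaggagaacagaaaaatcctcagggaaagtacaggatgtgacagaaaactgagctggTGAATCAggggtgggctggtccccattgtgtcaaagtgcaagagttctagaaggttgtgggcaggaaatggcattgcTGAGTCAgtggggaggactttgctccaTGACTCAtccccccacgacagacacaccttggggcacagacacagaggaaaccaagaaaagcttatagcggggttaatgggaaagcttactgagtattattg

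The member nearest to ATP23 had a −log10 q of 14.9, the member nearest to FEM1C 11.6 and the member nearest to VANGL1, a planar cell polarity gene, 8.89. The FN1 member had 3.71. The flanks belonged to members with values of 5.44 near FSCB, 5.23 near RPS23 and 5.05 near FOXL1. In the FSCB flank the matches fall in a short stretch that repeats itself. The FSCB and RPS23 members had no AP-1 match in their own 300-bp window and the FOXL1 member had 1.

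The members were thinly spread. The positions that meet the rule, called the territory, cover 1009.65 Mb or 35.6% of the assembled sequence of the 23 chromosomes with H3K27ac peaks. They held 2.21 members per Mb (exact Poisson 95% interval 2.12 to 2.30). Intergenic positions 3 to 50 kb from a protein-coding start held 7.05 H3K27ac-only peaks per Mb (6.78 to 7.33), positions inside protein-coding genes 6.87 (6.72 to 7.03), and positions within 3 kb of any gene start 17.8 (17.4 to 18.3). Together the members covered 699.6 kb, 0.0693% of the territory.

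Within the territory the density fell with distance. It was 5.26 members per Mb at 50 to 100 kb (970 members), 3.4 at 100 to 200 kb (745), 1.37 at 200 to 500 kb (437) and 0.381 at 500 to 1000 kb (74). Beyond 1000 kb there were 3 members in 94.1 Mb, or 0.0319 per Mb (0.00657 to 0.0931), and the farthest lay 1948.28 kb out. The intervals of the 5 classes did not overlap. The GC content of the territory moved with distance too, from 41.2% in the nearest class to 35.5% in the farthest, and its part in the density was not tested. The median distance to a protein-coding start was 110.8 kb (107.2 to 115.9), and to the start of any annotated gene, noncoding genes included, it was 22.3 kb (20.8 to 23.7). The rule itself holds the former above 50 kb and the latter only above 3 kb.

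**Figure D1:**
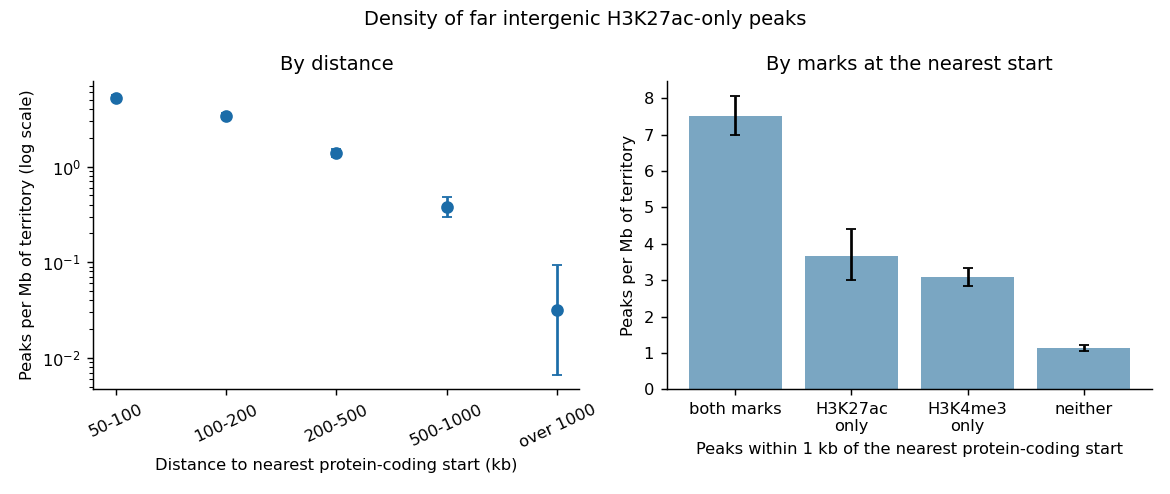
Members per Mb of territory by distance to the nearest protein-coding start (left, log axis) and by the marks within 1 kb of that start (right), with exact Poisson 95% intervals as bars. The density falls from 5.26 to 0.0319 per Mb with distance, and is 7.52 per Mb where the nearest start has both marks against 1.14 where it has neither. The groups on the right were not matched for distance.

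At the limit itself there was no break. The closest member inside lay 50.016 kb from the start of ZNF706 and had a −log10 q of 1.33, and the closest peak outside lay 49.965 kb from BOD1 and had 2.16. The 146 members 50 to 55 kb out had a median width of 275 bp and a median −log10 q of 2.80, beside 289 bp and 2.57 for the 129 peaks 45 to 50 kb out.

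In width and median −log10 q the peaks looked like those closer in. The median width was 267 bp (264 to 273), beside 273 bp for intergenic peaks 3 to 50 kb out and 270 bp inside genes. The median −log10 q was 2.54 (2.45 to 2.62), beside 2.47 and 2.45. There were 174 members at 5 or above (7.81%, 6.73 to 9.0), against 8.84% of all H3K27ac peaks. Peaks with H3K4me3 stood apart, with a median width of 346 bp and a median −log10 q of 3.15. Peaks with over 50% of their 32-base words repeated in the assembly, called multi-copy, made up 315 members (14.1%, 12.7 to 15.6), against 12.7% of all H3K27ac peaks. Multi-copy peaks were more common among intergenic peaks 3 to 50 kb out (19.1%, 17.6 to 20.7). They made up 15.6% inside genes, 12.5% within 3 kb of a gene start and 5.46% with H3K4me3.

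**Figure D2:**
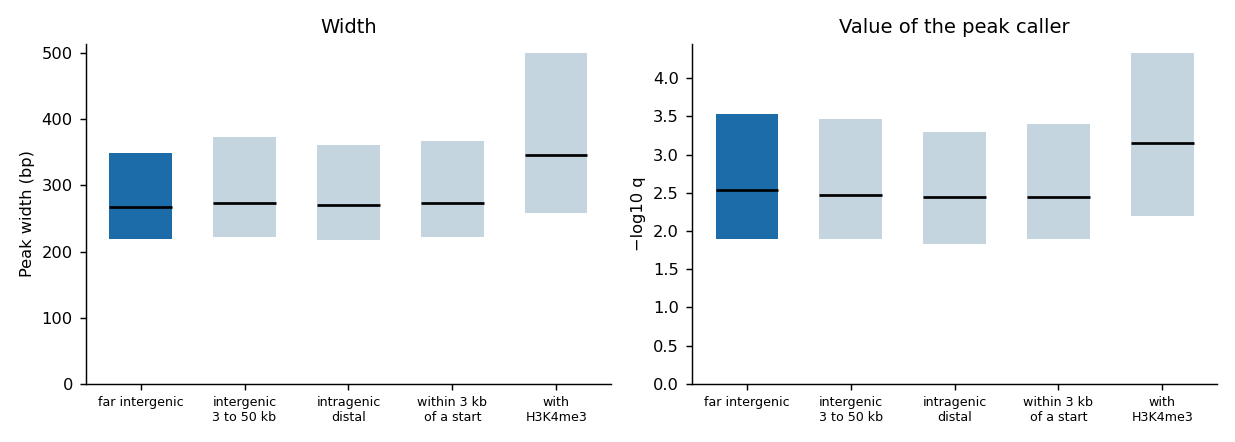
Width in bp and −log10 q of H3K27ac peaks by class, with boxes from the first to the third quartile and a line at the median. The 2229 far intergenic members have medians of 267 bp and 2.54, close to the other H3K27ac-only classes and below the peaks with H3K4me3.

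H3K4me3 was as rare here as in nearer intergenic positions. Of 2415 H3K27ac peaks at far intergenic positions, 186 overlapped H3K4me3 (7.70%, 6.67 to 8.84) and so were no members. The share was 7.69% (6.71 to 8.76) at intergenic positions 3 to 50 kb out. It was 25.8% over all positions that were not far intergenic, those 3 to 50 kb out included. The median distance from a member to an H3K4me3 peak was 52.5 kb (48.3 to 56.4), 143 members had one within 1 kb, and 1731 (77.7%) had an H3K4me3 peak closer than any protein-coding start. The last share is partly set by the rule, which keeps protein-coding starts over 50 kb away but lets H3K4me3 lie closer.

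The chromosomes differed widely. Among those with at least 10 Mb of territory, the density was highest on chromosomes 17 (5.54 per Mb, 4.38 to 6.93), 8 (4.77, 4.23 to 5.37) and 15 (4.06, 3.27 to 4.99). It was lowest on X (0.0757, 5 members in 66.1 Mb), 18 (0.238, 8 members) and 4 (0.383, 33 members). These 3 were also poor in H3K27ac peaks of any kind, with 0.218, 1.1 and 2.05 per Mb of assembled sequence, while chromosome 17 had 20.4. Chromosome 19 had 15.4 H3K27ac peaks per Mb but 0 members in its 5.46 Mb of territory, for which the exact Poisson upper limit is 0.675 per Mb and a limit of 3 counts 0.549 per Mb.

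**Figure D3:**
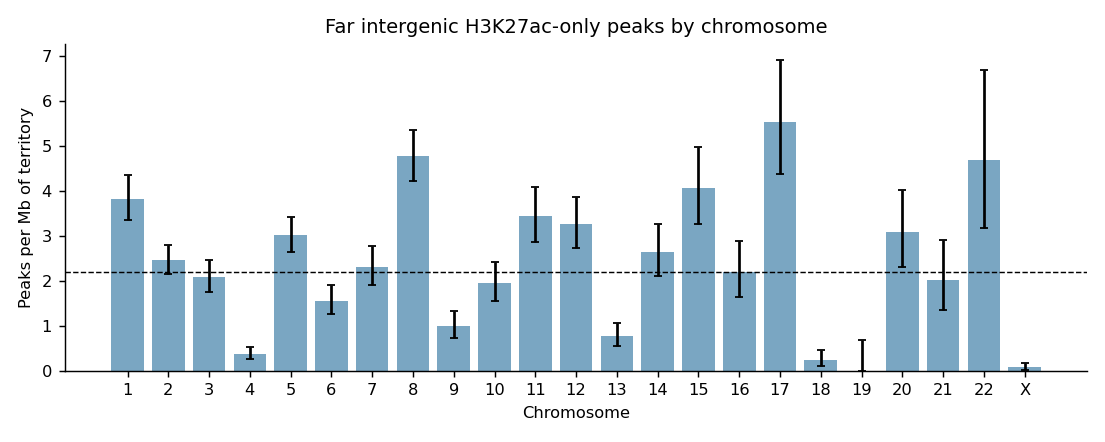
Members per Mb of territory on each chromosome, with exact Poisson 95% intervals and a dashed line at 2.21 per Mb for all chromosomes. Chromosomes 17 and 8 stand at 5.54 and 4.77, and X, 18 and 4 at 0.0757, 0.238 and 0.383.

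On chromosome 8 the members piled up around MYC, the growth-promoting transcription factor gene, and TRIB1, which encodes a pseudokinase. The members nearest to MYC, TRIB1, LRATD2 or POU5F1B numbered 165 in 2.75 Mb of territory, or 59.98 per Mb, and their median −log10 q was 3.26 (2.82 to 3.55) against 2.46 (2.45 to 2.59) for the other 2064. Without them chromosome 8 held 2.05 members per Mb. MYC (chr8:128747680-128755197) was the nearest start of 102 members, all downstream, 53.5 to 821.9 kb away, and 99 had their centre in PVT1, a long noncoding RNA gene at chr8:128806772-129199347. The member with the highest value of all, 20.8, lay in PVT1 outside its exons at chr8:129186446-129187368. It ranked 8 among all H3K27ac peaks. TRIB1 was nearest to 48 members with a median −log10 q of 3.97, and 20 of them formed the region with the most members, 35.5 kb long at chr8:126506775-126542276 in the lncRNA gene ENSG00000253111.

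Beyond chromosome 8, SOX9, a transcription factor of epithelial progenitors, was nearest to 21 members. They lay 239.4 to 930.9 kb from its start, 19 of them in the lncRNA gene LINC00511, and no H3K27ac peak lay closer to the SOX9 start than the first of them. BLID had 19, all of them in MIR100HG, a host gene of microRNAs, and neither mark within 1 kb of its own start. TMEM63B and UACA had 16 each, ZFP36L2, which encodes an RNA-binding protein, and TLE3, a corepressor, 14 each, and HMGA2, an architectural chromatin protein, NR2F1, a nuclear receptor, and DUSP10, a MAP kinase phosphatase, 13 each, as had LRATD2 of the chromosome 8 group. MYEOV, TOMM20 and ERRFI1, a feedback inhibitor of EGFR, had 12 each. In most of these genes the members stood on 1 side of the start. The rule leaves out gene bodies, and that of HMGA2 (chr12:66218240-66360071) lies downstream of its start. Territory was not measured by side, so the sides cannot be compared. The noncoding genes with the next most member centres were SCIRT (17), LINC01588 (14), SLC38A4-AS1 (13), ENSG00000258077 (11), SLC44A3-AS1 (10) and PITX1-AS1 (9).

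**Figure D4:**
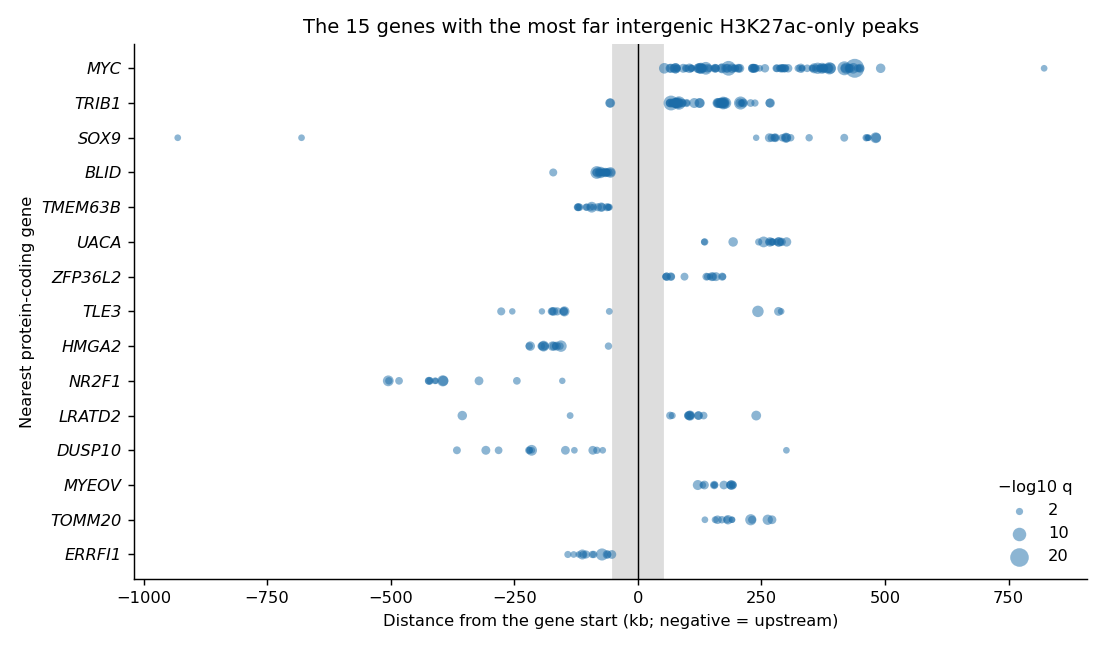
Members of the 15 protein-coding genes with the most, by signed distance in kb from the gene start (negative is upstream), with point area rising with −log10 q and the excluded 50 kb on either side in grey. The 102 members at MYC are all downstream and the 13 at HMGA2 all upstream. The rule leaves out gene bodies, and territory was not measured by side.

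In all, 889 of 20098 protein-coding genes (4.42%) were the nearest start of a member. Of the 5791 genes that had territory of their own, 888 were (15.3%). Of the 889 genes, 475 had 1 member and 20 had at least 10, which held 391 members. Genes with more members more often had marks at their own start. H3K27ac lay within 1 kb of the start in 16.2% (15.2 to 17.3) of the genes with territory and no member, 26.9% (23 to 31.2) of those with 1, 32.1% (26.9 to 37.7) of those with 2 to 4 and 44% (34.5 to 53.9) of the 109 with 5 or more. For H3K4me3 the shares were 30.3%, 46.5%, 53.4% and 64.2%. Read from the territory, the density was 7.52 per Mb (7.0 to 8.07) where the nearest start had both marks, 3.66 with H3K27ac alone, 3.08 with H3K4me3 alone and 1.14 (1.06 to 1.22) with neither. Without the 4 genes on chromosome 8 the first value was 6.07 (5.60 to 6.57). The GC content of these territories ran from 40.3% to 38.2% in the same order, and its part was not tested. The 844 genes with both marks had 102.5 Mb of territory and the 3629 with neither had 697.5 Mb. These territories were not split by distance, with which density fell, so the part of distance was not tested either.

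Of 18 genes of MAP kinase output and feedback, 11 were nearest to a member, against 4.42% of all genes. Of the 15 genes with territory 11 were (73.3%, 44.9 to 92.2), against 15.3%. Their 145 members included the 102 of MYC, and without MYC there were 43 in 6.09 Mb, or 7.06 per Mb. PHLDA1 had 10, SPRY4, a feedback inhibitor of receptor signalling, 9, and DUSP5, an ERK phosphatase, 8. CCND1, which encodes cyclin D1, had 4, and DUSP6, another ERK phosphatase, had 3, one of them with a −log10 q of 7.35. SPRED2 and EPHA4 had 3 each, with a highest −log10 q of 4.01 and 2.16. SPRY1, SPRY2 and ETV1 had 1 each, with a −log10 q of 1.55. The smaller lists had few genes with territory, and each count below is out of those, beside 15.3% of all such genes. For every list, those shares take no account of how much territory a gene has, so densities are given as well. The densities in turn take no account of how far out that territory lies, while density over all genes fell with distance. The part of distance in the densities of the lists was not tested. Lung lineage genes had members at 4 of 10 (40%, 12.2 to 73.8), namely SOX9, FOXA2 with 4, and GATA6 and SOX2 with 1 each. AP-1 genes had them at 1 of 6 (16.7%), which was JUN with 1. Epithelial genes had them at 3 of 6 (EPCAM 5, ELF3 2, GRHL2 2) and mesenchymal genes at 3 of 12 (SNAI2 4, TWIST2 4, FN1 1). Receptor tyrosine kinase genes had them at 4 of 17 (EPHA4 3, FGFR1 3, FGFR2 1, FLT1 1), neuroendocrine and squamous genes at 2 of 6 (TP63 3, SOX2 1) and YAP and TEAD genes at 1 of 6 (AMOTL2 3). The intervals of these 7 lists all held 15.3%. In the order given, the 7 lists held 6.15, 0.552, 33.7, 2.05, 2.08, 2.77 and 1.85 members per Mb, beside 2.21 over all genes. The epithelial value rests on 9 members in 0.267 Mb, and 21 of the 27 lung lineage members were at SOX9. Developmental transcription factor families, taken by symbol prefix, had members at 29 of 223 genes (13.0%, 8.89 to 18.1). Of the 117 with territory the share was 24.8% (17.3 to 33.6). Both intervals lie above the shares over all genes, and the density was 3.07 members per Mb. Synaptic and cadherin adhesion genes had them at 4 of 134 (2.99%, 0.819 to 7.47), or 4 of the 54 with territory (7.41%, 2.06 to 17.9), intervals that hold the shares over all genes. Their 8 members lay in 52.2 Mb of territory, 0.153 per Mb. Olfactory receptor genes had members at 0 of 41 with territory, for which the exact upper limit is 8.60% and a limit of 3 counts 7.32%.

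Members often lay in long noncoding RNA genes. The centre fell in such a gene in 887 members (39.8%, 37.8 to 41.9), while these genes cover 29.9% of the territory, so the density was 2.93 per Mb inside (2.74 to 3.13) and 1.90 outside (1.8 to 2.00). PVT1 alone held 99 of them. An exon of a noncoding gene was touched by 100 members (4.49%).

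Members were clustered. Within 10 kb of another member lay 1234 (55.4%, 53.3 to 57.4), in 386 regions with a median of 2 members, and 995 were solitary. The corresponding share was 59.0% for intergenic peaks 3 to 50 kb out and 59.7% inside genes. The 54 regions of at least 5 members held 409. Members in these regions were wider than the solitary ones, with medians of 294 bp (284 to 316) and 253 bp (247 to 261), and had a higher median −log10 q, 2.82 (2.62 to 2.94) against 2.25 (2.16 to 2.45). Their GC content was much the same, 52.3% and 52.0%. Of the 10 regions with the most members, 7 were near TRIB1 or MYC and the others near BLID (18 members in 31.3 kb, chr11:122041124-122072394), UACA (13) and H2BC12L (11).

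The members were rich in G and C. The median GC content of their 300-bp windows was 52.3% (52.0 to 52.3), beside 53.0% for intergenic peaks 3 to 50 kb out, 54.3% inside genes and 62.3% with H3K4me3. The median of all 3350360 consecutive 300-bp windows of the territory was 38.0%. At least 50% GC was found in 65.9% of members and 9.10% of these windows, and under 40% in 2.60% and 59.4%. The mean number of CpG was 5.01 per member window and 2.16 per territory window.

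Motif letters were searched on both strands in the same windows, and a match is a description of letters only. AP-1 letters (TGANTCA), bound by FOS and JUN dimers, were found in 142 members (6.37%, 5.39 to 7.47), against 5.03% of all H3K27ac peaks and 9.87% of territory windows. They were in 6.21% (5.29 to 7.23) of intergenic peaks 3 to 50 kb out, 5.58% inside genes and 3.37% with H3K4me3. Below the territory in the same way were GATA letters (AGATAA, 9.24% and 23.8%), C/EBP letters (TTGCNNAA, 10.4% and 17.1%) and forkhead letters (TGTTTAC, 2.33% and 5.04%). Above it were the E-box CAGCTG, bound by TFAP4 and related factors (18.6% and 8.88%), NK2 homeobox letters (TCAAGTG, 9.24% and 5.82%), CTCF core letters (AGGGGGC, 6.46% and 1.84%), GC box letters (GGGGCGG, 4.04% and 0.713%) and ETS letters (CCGGAAG, 2.15% and 0.474%). None of these 5 was a trait of the members alone. Intergenic peaks 3 to 50 kb out had them in 18.4%, 12.1%, 9.25%, 4.61% and 1.52%, in the same order. Peaks inside genes had 20.3%, 9.98%, 8.28%, 5.05% and 2.15%. For GATA, C/EBP and forkhead letters the shares were 8.17%, 8.05% and 1.72% at 3 to 50 kb, and 7.06%, 8.68% and 1.81% inside genes. YY1 letters (AAGATGG) stood at 6.33% and 6.07%. Members and territory differ in base composition, and AP-1, GATA, forkhead and GC box letters were also compared within classes of GC content. AP-1 letters were in 7.87% of members (5.68 to 10.6) and 10.8% of windows at 45 to 50% GC, in 7.16% (5.41 to 9.26) and 7.87% at 50 to 55%, and in 4.53% (3.14 to 6.30) and 5.75% from 55% up. Forkhead letters were in 2.76% and 3.06%, 2.97% and 2.57%, and 1.37% (0.660 to 2.51) and 4.22% in the same classes, so the direction changed between them. GATA letters were in 15.2% and 14.5%, 7.30% and 8.85%, and 3.98% and 4.69%. GC box letters were in 0.787% and 1.29%, 2.57% and 2.14%, and 9.19% and 7.47%. The E-box, NK2, C/EBP, CTCF, ETS and YY1 letters were not split by GC content. The GC box was in 21.2% of peaks with H3K4me3.

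AP-1 letters were scarcer at the centre of members than beside them, as in the other classes of H3K27ac peak. Within 100 bp of the centre there were 0.204 matches per kb (0.164 to 0.251), and 400 to 700 bp from it 0.680 (0.637 to 0.726), while the territory held 0.357 per kb. These limits were chosen after the profile had been seen. In 50-bp steps the rate was highest at 500 to 550 bp, with 0.781 per kb, and it was 0.579 at 950 to 1000 bp. The GC content was 52.8% in the central 50 bp on either side and 46.6% at 500 to 550 bp, and the windows of the territory with 45 to 50% GC held AP-1 letters in 10.8%, against 9.87% of all windows. The central rate was 0.228 per kb for intergenic peaks 3 to 50 kb out, 0.193 inside genes and 0.112 with H3K4me3, so the low centre was no trait of the members alone. The outer rate was 0.563 (0.526 to 0.603) for intergenic peaks 3 to 50 kb out, 0.499 (0.479 to 0.520) inside genes and 0.348 (0.329 to 0.368) with H3K4me3, so that of the members lay above each of these intervals. The GC content of the classes differed there too. At 500 to 550 bp it was 46.6% for members, 49.4% at 3 to 50 kb, 49.9% inside genes and 56.3% with H3K4me3. Territory windows held AP-1 letters in 10.8%, 7.87% and 5.75% at 45 to 50%, 50 to 55% and from 55% GC up. The part of GC content in the outer rates was not tested. Among members the outer rate was 0.793 (0.700 to 0.894) in the 557 members with the highest −log10 q and 0.648 (0.565 to 0.740) in the 558 with the lowest, intervals that overlap. It was 0.683 without the members nearest to the 4 genes on chromosome 8 and 0.673 without multi-copy members. Within 1 kb of the centre, 1392 members (62.4%, 60.4 to 64.5) had a match, against 49.4% of consecutive 2-kb windows of the territory. Other motifs had other profiles. CRE letters (TGACGTCA) had 0 matches within 100 bp of the centre and 6 at 400 to 700 bp, too few to compare. Forkhead letters went from 0.0718 per kb at the centre to 0.163 beside it, below the 0.177 of the territory, and E-box letters CAGCTG from 0.767 down to 0.611.

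**Figure D5:**
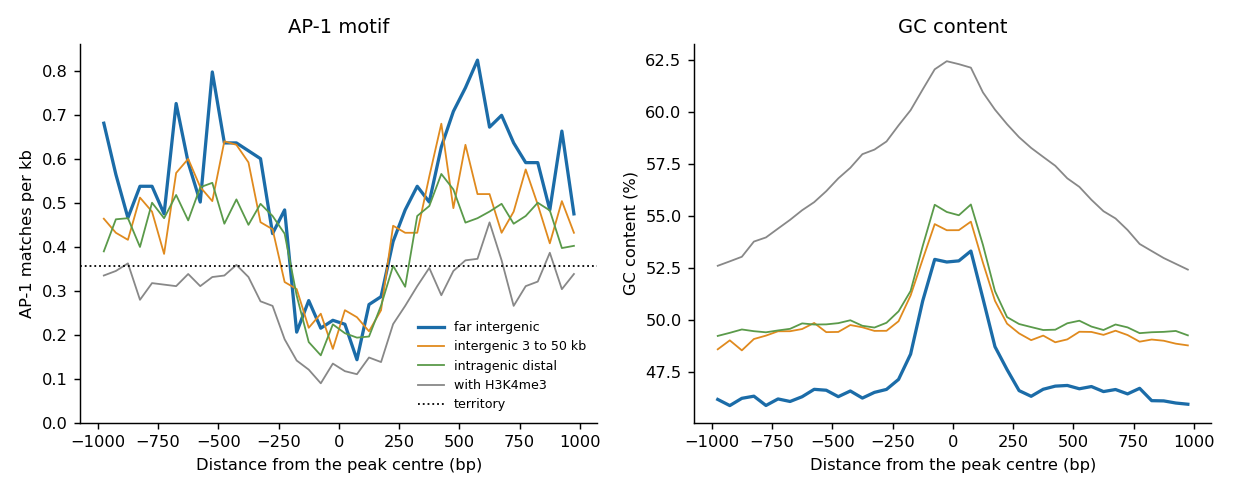
AP-1 matches per kb (left) and GC content in % (right) in 50-bp steps around the peak centre for far intergenic members and 3 other classes, with the rate over the territory dotted. The members fall to 0.204 per kb within 100 bp of the centre and reach 0.680 between 400 and 700 bp, where the territory has 0.357.

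The other members with the highest −log10 q were spread over several chromosomes. One of 16 near PAWR on chromosome 12 had 48.1% of its words repeated, and one of 10.1 near ARHGAP5 on chromosome 14 had 58.3%. A member of 11.7 lay near PROK2 on chromosome 3. The widest member, 1943 bp near FGF3 on chromosome 11 with a −log10 q of 3.61, had 100% of its words repeated. The next widest were 1476 bp near PWWP2B, 1198 bp near TOMM20, 1177 bp near ARF6 and 1155 bp near PRMT8, all with 0% repeated.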

How the data were processed

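Chromatin immunoprecipitation sequencing of H2087 cells gave 1 peak list for each mark. Per the labels, the submitters' processing notes name Bowtie 1.1.1, SAMtools 1.2, Picard 1.118 and MACS2 2.1.0 and the build hg19. The deposited value of each entry was read as −log10 q, as given by the authors' peak caller, from the numbers alone: the smallest was 1.303, beside 1.301 for a q of 0.05. The threshold and the use of the input as control are not given in the sources used here, and read depth is unknown. The 25275 H3K27ac and 20282 H3K4me3 entries, 1 per summit, were reduced to distinct intervals with their highest value. Genes were those of GENCODE 44 mapped to hg19, with 64449 starts, 20163 of them protein-coding. Positions are 1-based.

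Distances were measured from the peak edge, and the territory is the sequence without N where a centre would meet the rule. Motifs were searched in 300-bp windows on the centre. Words of 32 bases were taken every 20 bases. Shares have exact Clopper-Pearson, densities exact Poisson and medians order-statistic 95% intervals. Functions were tested on simulated data. Python 3.11.15, NumPy 2.4.6, pandas 2.3.3, SciPy 1.17.1, Numba 0.67.0 and Matplotlib 3.10.9 were used.

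Members and lists were chosen with earlier results of these data known. Named were the 10 highest and 5 widest members, 5 members or peaks on each side of the 50 kb limit, the 10 largest regions, 15 nearest genes, 10 noncoding genes, and the 3 highest and 3 lowest chromosomes with at least 10 Mb of territory. Sequences on chromosome 8 or with 10% or more repeated words are not shown, and not every item named by the rule is described. Chosen after values were seen were the 400 to 700 bp range, the 2-kb windows, the flank sequences, the group of 4 genes on chromosome 8, the counts without MYC, and stricter symbol patterns for 2 gene families.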

Additional observations from a re-analysis of the deposited data

How the results depend on the processing

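No paired analysis was possible because there was only 1 library per mark. Of 66 alternatives for 12 values, 61 planned and 5 added after seeing the data, 36 stayed within the interval of the reported value (for the count, within a factor of 1.5) and 30 did not. Taking only H3K27ac peaks at or above the median −log10 q left 1053 members, 1.04 per Mb, a median width of 292 bp, 45.3% stitched and a median distance to H3K4me3 of 47.0 kb. Merging peaks within 1 kb gave a share of 12.7%, 1.84 per Mb, 274 bp and 60.4 kb. Removing peaks under 200 bp gave 283 bp. With 25 kb in place of 50 kb the share was 17.2% and the density 2.72 per Mb. With 100 kb there were 1259 members, a share of 6.88%, 1.53 per Mb, 53.2% stitched, 70.3 kb to H3K4me3, 45.8% in noncoding genes and a median GC content of 51.7%. Removing peaks with H3K4me3 within 1 kb gave 13.5%, 2.07 per Mb and 58.4 kb, the starts of every transcript gave 9.77%, and removing multi-copy peaks gave 1.90 per Mb. Stitching within 5 kb or 20 kb gave 48.4% or 63.1%. The whole peak interval gave a GC content of 53.3%, and counting a start as marked within 3 kb gave 38.0% of nearest genes with H3K27ac. Without the members nearest to MYC, TRIB1, LRATD2 and POU5F1B the density was 2.05 per Mb and 52.1% were stitched. Apart from settings whose construction removes peaks or moves a limit, the cause was not tested. The density with the starts of every transcript was not run. The symbol-prefix families contain genes that only share a prefix. Stricter patterns left 215 and 121 genes in place of 223 and 134, with 29 and 4 having members as before. Depth and replicate spread are unknown, so a missing peak says nothing about absence of the mark.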
